A study of Arabidopsis thaliana with 8 samples.

Results

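The tetrapyrrole pathway of Arabidopsis thaliana, from glutamyl-tRNA to chlorophyll, heme, siroheme and phytochromobilin, was examined in seedlings that grew in darkness and then met red light. Its members were 36 genes, a list of loci that code for the enzymes of each step and 2 regulators of the first committed enzyme, out of 27416 genes with a value in each library. Of these, 35 had enough reads to be tested, while the heme oxygenase gene HO3 had 1 read in 8 libraries. The study sequenced mRNA from whole seedlings of the Col-0 ecotype in 4 groups of 2 libraries each. By their labels, the phyAB group carried mutations of the red and far-red light receptors phytochrome A and phytochrome B, the phyB group a mutation of phytochrome B, and the WT red group was wild type. All 3 of these groups spent 5 days in the dark and then 1 h under red light at 50 µmol m−2 s−1, the exponent being written unevenly in the labels and read here as per square metre. The WT dark group was wild type kept in darkness for the same 5 days with no red light. Seeds of every group had 3 days of cold and 12 h of white light before the dark period, on medium with 1% sucrose. Which alleles the mutants carry is not given in the sources used here, and no mutant seedlings kept in darkness were analysed here, so a difference between a mutant and WT red cannot be told apart from one that was present before the light.

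Tetrapyrroles are the ring molecules that carry magnesium in chlorophyll and iron in heme. Plants make all of them in the plastid from 5-aminolevulinic acid (ALA), and the path splits at protoporphyrin IX, where magnesium chelatase opens the way to chlorophyll and ferrochelatase the way to heme. Heme is in turn opened to the bilin that phytochromes carry as their chromophore. Seedlings in darkness stop at protochlorophyllide, because the enzyme that reduces it needs light, and free intermediates are phototoxic, so flow into the path is held back until greening begins.

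Libraries held between 15926547 reads in phyB replicate 1 and 22116924 reads in phyB replicate 2. Levels of a gene are given as CPM, its reads relative to a library size scaled by the trimmed mean of M-values, and levels of different genes are compared only as the deposited RPKM, which divide by gene length. The labels do not say that replicates are separate batches of seedlings, so a p-value covers no more than library-to-library spread, part of which may be technical. PHYA had 124 and 123 CPM in phyAB, 703 and 703 in phyB, 463 and 471 in WT red and 834 and 828 in WT dark. PHYB had 52.9 and 50.4 CPM in phyAB, 62.3 and 64.3 in phyB, 95.99 and 95.2 in WT red and 80.7 and 81.4 in WT dark, so PHYA was lowest in phyAB and PHYB in phyAB and phyB, neither being absent. Among markers of other tissues, the summed level of 3 seed storage genes was 49.02 and 48.7 CPM in phyAB, against at most 1.02 in any other library. The summed level of 3 shoot markers was 89.8 and 88.7 CPM in phyAB, 122 and 116 in phyB, 113 and 113 in WT red and 89.1 and 85.2 in WT dark. These 3 did not move alike. In WT red over WT dark, FIL (1.68 ± 0.091) and YAB3 (0.38 ± 0.089) were called higher and AS1 was not called (−0.038 ± 0.051). For phyAB over WT dark, FIL was called higher (0.86 ± 0.099), AS1 lower (−0.14 ± 0.051) and YAB3 was not called. The sum of 2 epidermal markers was 449 and 438 CPM in phyAB, 591 and 589.9 in phyB, 494 and 509 in WT red and 304 and 309 in WT dark. The sum of 2 guard cell lineage markers was 4.25 and 4.18 CPM in phyAB, 6.92 and 6.16 in phyB, 5.34 and 6.02 in WT red and 1.95 and 2.36 in WT dark. Of these, SPCH was called higher in WT red over WT dark (2.52 ± 0.28 on the log2 scale, adjusted p = 1.87e-14). FAMA, the other, was not called there (−0.10 ± 0.35, adjusted p = 0.841). In phyAB over WT dark, SPCH was called higher (2.20 ± 0.29) and FAMA lower (−0.91 ± 0.38). The 5 root markers summed to between 121.3 and 137.5 CPM over all libraries, a sum made up mostly of CASP2 and MYB36. Within it, the root hair gene RHD6 had 6.33 and 6.89 CPM in phyAB, 0.935 and 0.989 in phyB, 3.99 and 3.51 in WT red and 10.4 and 8.75 in WT dark, and differed in each comparison (adjusted p of at most 0.00104). The other root markers did not follow RHD6 throughout. In phyB over WT red, where RHD6 fell, MYB36 (0.25 ± 0.073) and CASP2 (0.16 ± 0.042) were called higher, and COBL9 and EXPA7 were not called. In phyAB over WT red, RHD6, COBL9, EXPA7 and CASP2 were called higher and MYB36 was not called. These single markers are named here after their values were seen. No listed marker was at 0 in every library, and the part of tissue make-up in the results below was not tested.

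After 1 h of red light, most of the pathway stood higher in WT red than in WT dark. Of the 35 tested members, 27 were higher and 2 lower at an adjusted p under 0.05 in edgeR's quasi-likelihood test. Over all 20716 genes tested, 24.1% were called higher and 22.7% lower. A rise of at least 2-fold was called for 14 members, against 7.06% of all genes, and no member fell that far, against 2.67% of all genes. The median log2 change of the members was 0.73, against 0.0 for all genes. In whole seedlings, more cells of a type and more RNA per cell cannot be told apart. The 10 genes of the chlorophyll branch were all called higher, with a median log2 change of 2.20, and the 9 genes of the steps common to chlorophyll and heme had a median of 0.70 with 8 called higher.

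**Figure D1:**
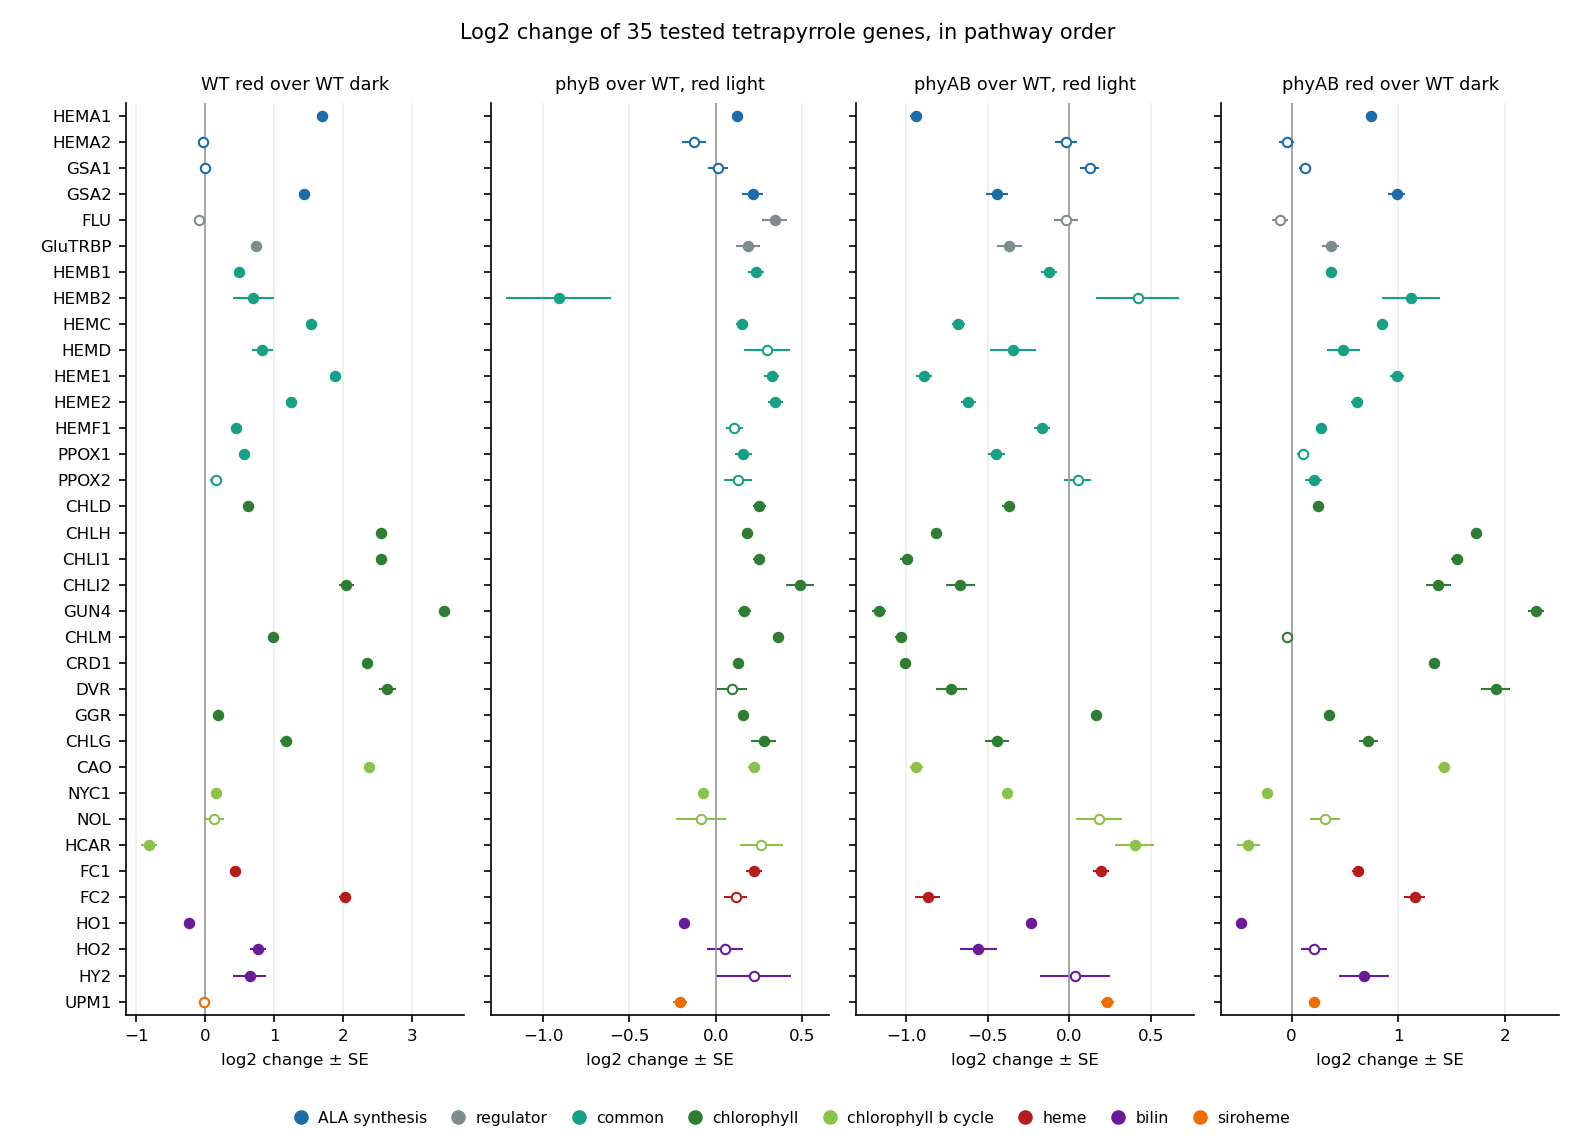
Log2 change of each of the 35 tested members for WT red over WT dark, phyB over WT red, phyAB over WT red and phyAB over WT dark. Bars are 1 standard error and filled points are calls at an adjusted p under 0.05. The change of WT red over WT dark is largest for GUN4 at 3.46, and most members that stand to the right of 0 there stand to the left of 0 for phyAB over WT red.

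ALA synthesis was split between isozymes. HEMA1 (AT1G58290) codes for the glutamyl-tRNA reductase that makes the first committed step, and had 227 and 230.3 CPM in WT red, against 68.6 and 73.4 CPM in WT dark. Its log2 change was 1.69 ± 0.035 (SE; adjusted p = 5.42e-82). HEMA2 (AT1G09940), the second reductase gene, had 34.3 and 32.5 CPM in WT red and 36.7 and 31.4 CPM in WT dark. The HEMA1 libraries of the groups lay far apart, while those of HEMA2 overlapped and its log2 change was −0.027 ± 0.069 (adjusted p = 0.789). The next enzyme, glutamate-1-semialdehyde aminotransferase, showed the same division. GSA2 (AT3G48730) had 40.7 and 43.6 CPM in WT red, against 16.1 and 15.1 CPM in WT dark, a log2 change of 1.43 ± 0.076 (adjusted p = 3.02e-37). GSA1 (AT5G63570) had 46.7 and 50.9 CPM in WT red and 47.4 and 50.05 CPM in WT dark, and its libraries overlapped.

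Control of the reductase protein is exerted by FLU (AT3G14110), which represses it in darkness, and by GluTRBP (AT3G21200), a protein that binds it at the membrane. FLU averaged 28.7 ± 0.0341 CPM in WT red and 30.4 ± 2.32 CPM in WT dark (SD, n = 2 each) and was not called (log2 change −0.085 ± 0.073, adjusted p = 0.361). GluTRBP rose, with 31.6 ± 0.366 CPM in WT red and 19.02 ± 0.165 CPM in WT dark (SD, n = 2 each) and a log2 change of 0.73 ± 0.078 (adjusted p = 2.27e-15). The ratio of HEMA1 to FLU in RPKM was 4.17 ± 0.0472 in WT red, against 1.23 ± 0.152 in WT dark (SD, n = 2 each).

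The steps from ALA to protoporphyrin IX rose unevenly. HEMC (AT5G08280), porphobilinogen deaminase, had 145 and 143 CPM in WT red, against 50.1 and 49.5 CPM in WT dark (log2 change 1.53 ± 0.042, adjusted p = 1.16e-67). HEME1 (AT3G14930), uroporphyrinogen III decarboxylase, had 80.3 and 80 CPM in WT red, against 21.4 and 22.1 CPM in WT dark (log2 change 1.88 ± 0.058, adjusted p = 4.54e-62). HEME2 (AT2G40490), the other decarboxylase gene, had 84.8 and 86.3 CPM in WT red, against 38.1 and 34.4 CPM in WT dark (log2 change 1.24 ± 0.052, adjusted p = 1.37e-47). These 3 genes were the ones of the common steps that rose at least 2-fold, and none of their libraries overlapped between the groups. Smaller rises were called for HEMB1 (AT1G69740), an ALA dehydratase (0.50 ± 0.05 on the log2 scale), for HEMD (AT2G26540), uroporphyrinogen III synthase (0.83 ± 0.15), for HEMF1 (AT1G03475), coproporphyrinogen III oxidase (0.45 ± 0.053), and for PPOX1 (AT4G01690), protoporphyrinogen IX oxidase (0.56 ± 0.054). PPOX2 (AT5G14220), the second oxidase gene, was not called (0.16 ± 0.084, adjusted p = 0.123). HEMB2 (AT1G44318), a second dehydratase gene of low level, had 2.33 and 2.38 CPM in WT red and 1.80 and 1.07 CPM in WT dark. Its rise (0.70 ± 0.29, adjusted p = 0.0408) was lost in DESeq2, under upper-quartile scaling, with an assumed coefficient of variation of 0.1, and without either WT red library or WT dark replicate 2.

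At the entry to chlorophyll, GUN4 (AT3G59400) and all subunits of the chelatase rose. GUN4, a porphyrin-binding protein that stimulates magnesium chelatase, had 116 and 119 CPM in WT red, against 10.7 and 10.6 CPM in WT dark, 11.02-fold (log2 change 3.46 ± 0.062, adjusted p = 7.85e-90). CHLH (AT5G13630), the porphyrin-binding subunit of the chelatase, had 472 and 469 CPM in WT red, against 80.6 and 80.8 CPM in WT dark (log2 change 2.54 ± 0.031). CHLI1 (AT4G18480), the main ATPase subunit, had 138 and 139 CPM in WT red, against 22.6 and 25.03 CPM in WT dark (log2 change 2.54 ± 0.05). CHLI2 (AT5G45930), the minor ATPase subunit, had 22.7 and 24.3 CPM in WT red, against 6.26 and 5.05 CPM in WT dark (log2 change 2.04 ± 0.11). CHLD (AT1G08520), the third subunit, had 117 and 121 CPM in WT red, against 76.8 and 78.4 CPM in WT dark, with a smaller log2 change of 0.62 ± 0.04. Adjusted p-values were 2.41e-111 for CHLH, 6.51e-85 for CHLI1, 1.80e-36 for CHLI2 and 1.23e-29 for CHLD. The balance of the subunit transcripts differed, with CHLH over CHLD at 2.23 ± 0.0529 in RPKM in WT red and 0.586 ± 0.00775 in WT dark (SD, n = 2 each). CHLI1 plus CHLI2 over CHLD moved alike, at 2.19 ± 0.0158 in WT red and 0.612 ± 0.00679 in WT dark (SD, n = 2 each).

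GUN4 lies across from an opposite-strand gene, AT3G59410, with which its model shares 946 bases in the TAIR10.1 annotation, and no source used here says whether reads were assigned by strand. That neighbour, named because of the overlap and after its values were seen, had 33.7 and 35.6 CPM in WT red and 33.1 and 33.8 CPM in WT dark, with a log2 change of 0.05 ± 0.07 (SE; adjusted p = 0.627). In phyAB it had 26.6 and 31.0 CPM, a log2 change of −0.27 ± 0.07 over WT red (adjusted p = 6.43e-04). In the same annotation, 18 of the 36 members overlap another gene of the files, 10 of them by at least 100 bases. For FLU, PPOX2, CHLI2, HY2 (AT3G09150) and HO3 (AT1G69720), the overlapping gene has more reads than the member, and the split of reads between them is uncertain.

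Downstream of the chelatase, the rises continued with exceptions. CRD1 (AT3G56940), a subunit of the cyclase that closes the fifth ring, had 412 and 414 CPM in WT red, against 84.7 and 77.3 CPM in WT dark (log2 change 2.35 ± 0.032, adjusted p = 3.09e-105). DVR (AT5G18660), the divinyl reductase, had 22.1 and 24.5 CPM in WT red, against 4.01 and 3.44 CPM in WT dark (log2 change 2.64 ± 0.12, adjusted p = 1.08e-42). CHLG (AT3G51820), chlorophyll synthase, which joins the phytyl tail to the ring, had 32.4 and 30.7 CPM in WT red, against 14.1 and 14.1 CPM in WT dark (log2 change 1.16 ± 0.083, adjusted p = 1.90e-26). No library of these 3 genes in WT red reached down to WT dark. CHLM (AT4G25080), the methyltransferase between chelatase and cyclase, stood just under 2-fold, with 167 and 164 CPM in WT red and 86.6 and 80.6 CPM in WT dark (log2 change 0.99 ± 0.037, adjusted p = 3.03e-53). GGR (AT1G74470), geranylgeranyl reductase, which supplies the phytyl tail for chlorophyll and tocopherols, moved least of the branch, with 429.7 and 440.2 CPM in WT red and 378 and 386 CPM in WT dark (log2 change 0.19 ± 0.021, adjusted p = 1.53e-14).

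Genes of the chlorophyll b cycle did not move together. CAO (AT1G44446), the oxygenase that makes chlorophyll b from a, had 141 and 142 CPM in WT red, against 29.1 and 25.5 CPM in WT dark (log2 change 2.37 ± 0.049, adjusted p = 6.24e-83). NYC1 (AT4G13250) and NOL (AT5G04900) are the reductases that begin the return from b to a. NYC1 was called higher by a small amount (0.15 ± 0.026, adjusted p = 2.58e-07) and NOL was not called (0.13 ± 0.15, adjusted p = 0.5). HCAR (AT1G04620), which completes the return, had 8.96 and 8.96 CPM in WT red and 15.3 and 16.2 CPM in WT dark, and fell by 0.81 on the log2 scale (adjusted p = 9.51e-10). HCAR was lower in both WT red libraries than in either WT dark library.

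Of the ferrochelatases, FC2 (AT2G30390), the form tied to photosynthetic tissue, had 38.02 and 35.7 CPM in WT red, against 8.57 and 9.61 CPM in WT dark (log2 change 2.02 ± 0.089, adjusted p = 2.58e-45). FC1 (AT5G26030), the more widely expressed form, had 66.3 and 61.1 CPM in WT red, against 46.9 and 48.2 CPM in WT dark (log2 change 0.43 ± 0.052, adjusted p = 2.09e-12). Both rose without overlap, FC2 by the wider margin. HO1 (AT2G26670), the main heme oxygenase, which opens heme on the way to the phytochrome chromophore, had 235 and 237 CPM in WT red and 276 and 279.7 CPM in WT dark, and fell by 0.24 on the log2 scale (adjusted p = 9.05e-14). HO2 (AT2G26550), its less abundant relative, rose (0.77 ± 0.11, adjusted p = 3.30e-09). HY2, phytochromobilin synthase, had 4.04 and 2.76 CPM in WT red and 1.90 and 2.52 CPM in WT dark, and its rise (0.64 ± 0.24, adjusted p = 0.0185) was lost in DESeq2, with an assumed coefficient of variation of 0.1, and without WT dark replicate 1 or WT red replicate 1. UPM1 (AT5G40850), which commits the path to siroheme, the cofactor of nitrite and sulfite reductases, was not called (−0.023 ± 0.041, adjusted p = 0.689).

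**Figure D2:**
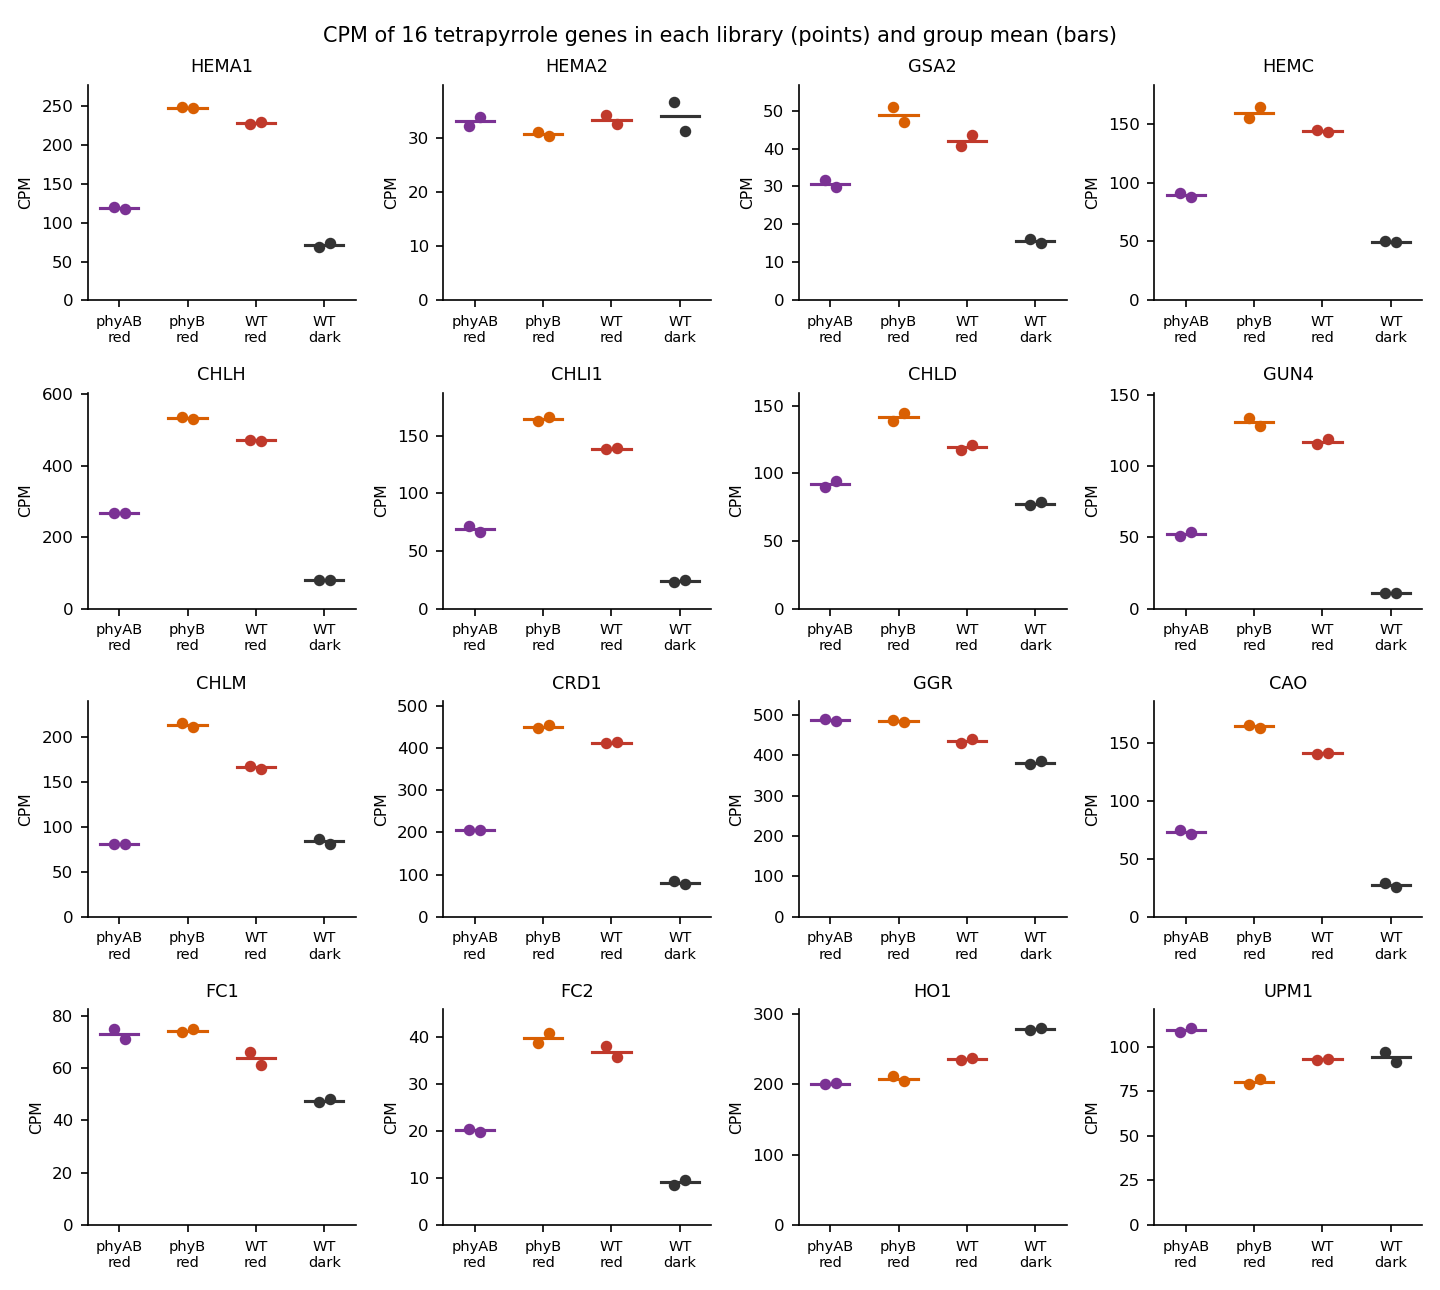
Level of selected members in each of the 8 libraries, in CPM, with a short bar at each group's mean and panels on their own linear axes. HEMA1, GUN4 and CHLH stand lowest in WT dark, while HO1 is highest there and its groups do not overlap.

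Because the isozymes of a step moved by different amounts, the make-up of several steps changed. HEMA1 held 87.05% and 87.8% of the summed RPKM of both glutamyl-tRNA reductase genes in WT red, against 65.5% and 70.3% in WT dark. For the aminotransferase, GSA2 held 47.6% and 47.2% in WT red and 26.1% and 23.9% in WT dark. FC2 held 38.4% and 38.8% of ferrochelatase RPKM in WT red and 16.6% and 17.8% in WT dark. In all 3 pairs the shares did not overlap between WT red and WT dark. In phyAB, the shares lay between those groups, with HEMA1 at 79.1% and 77.8%, GSA2 at 38.04% and 37.5% and FC2 at 22.9% and 23.3%. In phyB they were 89.04% and 89.2% for HEMA1, 51.3% and 50.6% for GSA2 and 36.4% and 37.2% for FC2. An intermediate share in phyAB was not general. It held for HEME1 and HO2 as well. PPOX1 held 67.2% and 66.9% in phyAB, below its 68.4% and 68.8% in WT dark. HEMB1 and NYC1 also held smaller shares in phyAB than in WT dark. With 2 libraries a group, an exact permutation test of a share cannot go below 0.333, so the shares are given without one.

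**Figure D3:**
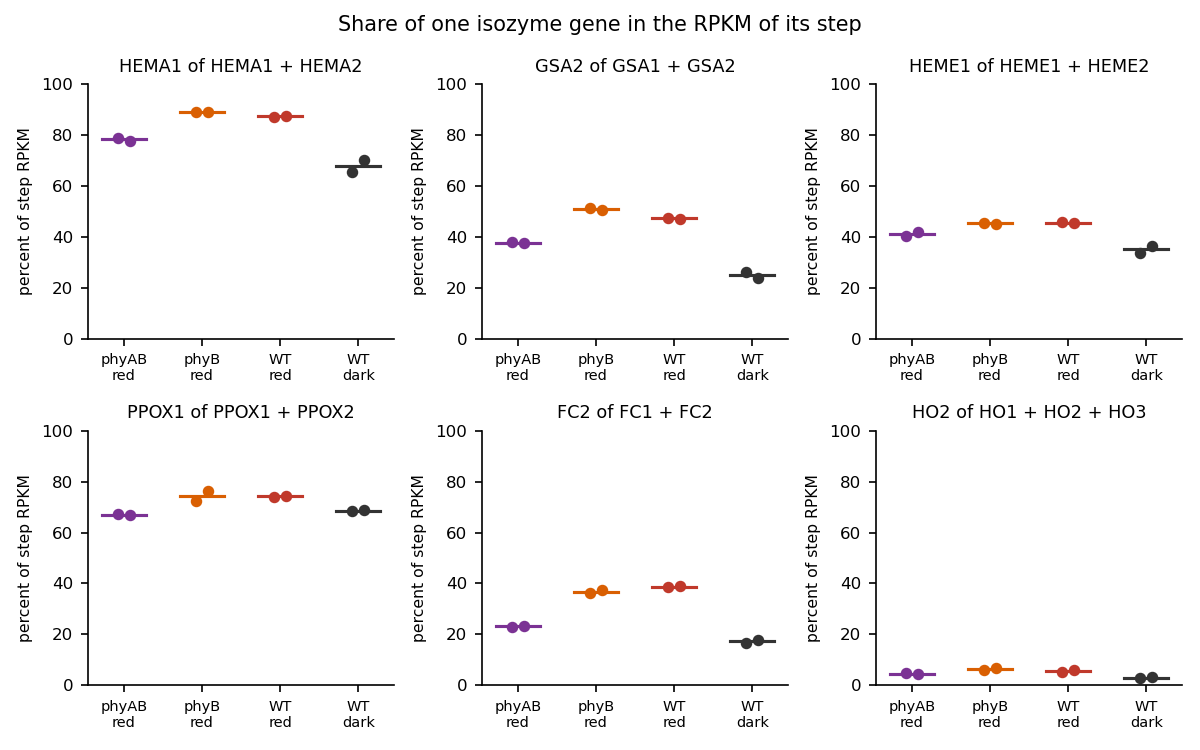
Share of each step's summed RPKM held by 1 isozyme, in percent, for each of the 8 libraries. HEMA1, GSA2 and FC2 hold their smallest shares in WT dark, and their phyAB libraries lie between WT dark and WT red.

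Summed over isozymes, the deposited RPKM gave different amounts of transcript to each step. Magnesium chelatase, over 4 subunit genes, totalled 246 and 248 RPKM in WT red, against 65.9 and 67.3 RPKM in WT dark. Ferrochelatase totalled 51.5 and 47.8 RPKM in WT red and 27.4 and 28.6 RPKM in WT dark. CHLH alone over ferrochelatase was 2.05 ± 0.1003 in WT red and 0.634 ± 0.0177 in WT dark (SD, n = 2 each), so that the CHLH transcript outweighed those of ferrochelatase in WT red and not in WT dark. Heme oxygenase held 208 and 212 RPKM in WT red and 244 and 248 RPKM in WT dark, the largest sum of any step in the dark seedlings. GUN4 had 115 ± 2.46 RPKM in WT red and 10.6 ± 0.0704 RPKM in WT dark (SD, n = 2 each). It ranked 6 among the members in WT red and 24 in WT dark. The scarcest steps were HY2, with at most 3.06 RPKM in any library, HEMD, with at most 8.06, HCAR, with at most 9.996, and DVR, with at most 17.2.

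**Figure D4:**
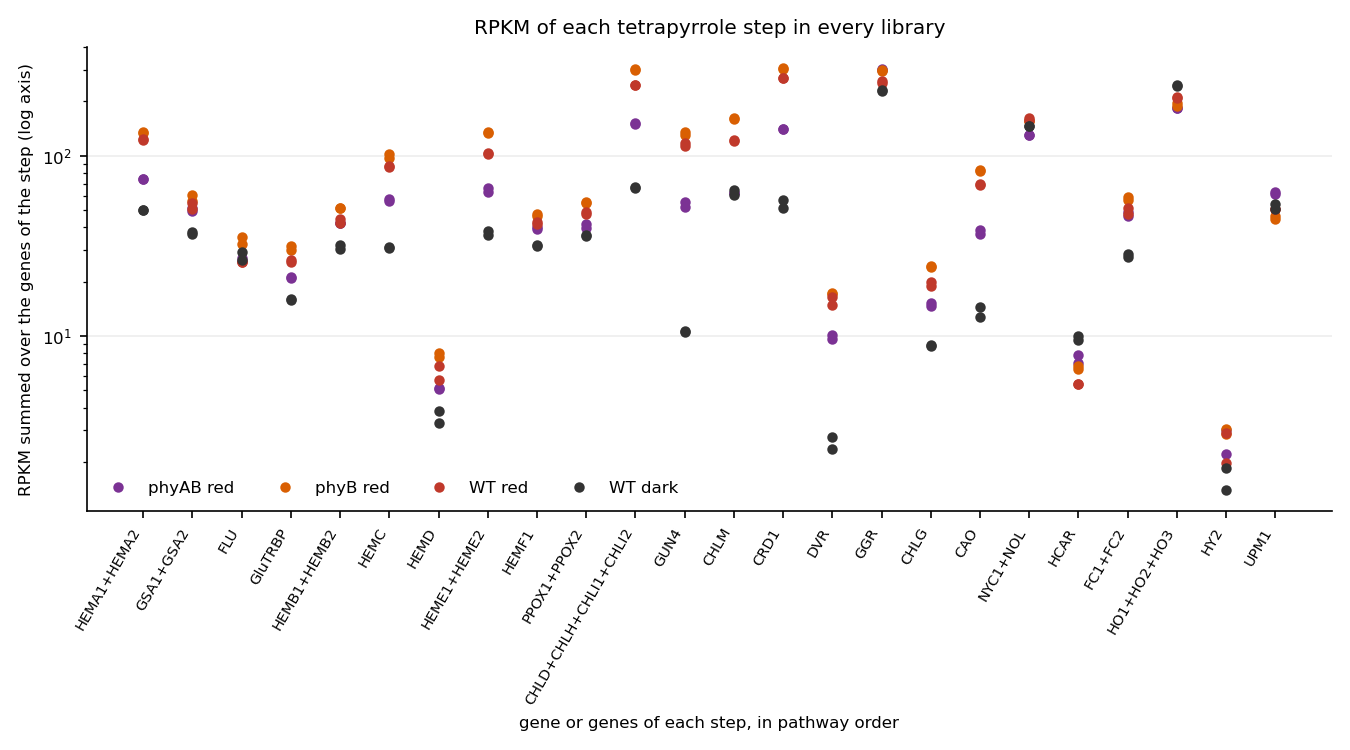
Summed RPKM of each step of the pathway in each library, on a log axis. In phyB and WT red, CRD1, GGR and magnesium chelatase carry the 3 largest sums, and in WT dark heme oxygenase carries the largest.

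Promoter sequence was read for all members, as the bases from 250 before to 50 after the annotated gene start in TAIR10.1, and searched on both strands for 4 motifs. The G-box, CACGTG, is the core bound by basic helix-loop-helix factors of the phytochrome-interacting class and by the bZIP factor HY5. It occurred in 8 of the 36 members (22.2%), against 7.79% of all 26709 windows. The 8 members were HEMB2, HEMD, CRD1, CAO, NYC1, NOL, FC2 and HY2. Among the 14 members that rose at least 2-fold in WT red over WT dark, 3 held it, and among the other 22 members, 5 did. CACATG, the PBE-box variant, occurred in 16.7% of members and 12.97% of windows. CCAATC occurred in 11.1% of members and 12.3% of windows, and the I-box GATAAG in 16.7% of members and 14.61% of windows. No match of a motif is also a match of another, a match is not a site of binding, and no match says only that these letters are not in this window.

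The 250 bases before the gene start are shown for 6 members, chosen after their values were seen: GUN4, with the largest rise and no G-box, CRD1, CAO and FC2, which rose and hold it, FC1, the ferrochelatase that rose less and holds none, and NOL, which holds 1 and was not called. Capitals mark the G-box. They lie in TAIR10.1 at chr3:21949797-21950046 (minus strand) for GUN4, chr3:21076255-21076504 (plus strand) for CRD1, chr1:16851272-16851521 (minus strand) for CAO, chr2:12954149-12954398 (minus strand) for FC2, chr5:9096201-9096450 (plus strand) for FC1 and chr5:1434524-1434773 (plus strand) for NOL, each read 5′ to 3′ toward the gene.
GUN4: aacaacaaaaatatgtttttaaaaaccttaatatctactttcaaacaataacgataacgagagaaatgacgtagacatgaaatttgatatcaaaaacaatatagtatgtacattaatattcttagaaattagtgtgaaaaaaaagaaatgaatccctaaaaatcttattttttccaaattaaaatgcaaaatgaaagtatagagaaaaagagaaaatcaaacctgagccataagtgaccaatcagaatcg
CRD1: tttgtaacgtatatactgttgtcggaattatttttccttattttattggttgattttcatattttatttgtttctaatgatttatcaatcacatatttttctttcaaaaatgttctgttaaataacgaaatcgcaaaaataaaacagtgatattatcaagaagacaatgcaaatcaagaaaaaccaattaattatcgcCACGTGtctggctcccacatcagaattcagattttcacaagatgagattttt
CAO: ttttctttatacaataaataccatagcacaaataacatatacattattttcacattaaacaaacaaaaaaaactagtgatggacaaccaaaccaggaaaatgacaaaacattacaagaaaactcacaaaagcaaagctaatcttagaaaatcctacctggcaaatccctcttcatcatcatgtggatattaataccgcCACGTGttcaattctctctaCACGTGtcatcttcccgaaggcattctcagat
FC2: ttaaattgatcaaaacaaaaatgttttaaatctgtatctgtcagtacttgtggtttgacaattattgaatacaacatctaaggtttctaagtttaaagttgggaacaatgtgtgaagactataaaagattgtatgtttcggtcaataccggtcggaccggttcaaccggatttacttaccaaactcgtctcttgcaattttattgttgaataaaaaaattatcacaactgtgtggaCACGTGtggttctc
FC1: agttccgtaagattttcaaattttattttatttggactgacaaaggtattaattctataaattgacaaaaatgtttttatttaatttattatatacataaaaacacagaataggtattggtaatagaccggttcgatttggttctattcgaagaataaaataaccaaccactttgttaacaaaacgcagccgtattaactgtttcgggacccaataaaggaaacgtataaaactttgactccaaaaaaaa
NOL: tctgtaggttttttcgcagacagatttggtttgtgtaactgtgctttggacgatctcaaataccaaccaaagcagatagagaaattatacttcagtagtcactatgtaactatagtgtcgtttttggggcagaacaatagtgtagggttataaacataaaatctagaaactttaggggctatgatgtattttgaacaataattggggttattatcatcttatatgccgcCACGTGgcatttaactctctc
CAO carries 2 G-boxes in this stretch, and CRD1, FC2 and NOL carry 1 each.

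In phyB seedlings the members differed little from WT red. Against WT red, 20 of the 35 members were called higher in phyB and 4 lower, where 13.1% of all genes were called higher and 14.1% lower. The median log2 change of the members was 0.16, against 0.0 for all genes, and none was called at 2-fold or more, where 1.13% of all genes were called higher and 1.04% lower at that size. CHLI2 moved most among those called higher, with 33.2 and 32.5 CPM in phyB and 22.7 and 24.3 CPM in WT red (log2 change 0.49 ± 0.081, adjusted p = 2.15e-07). CHLM had 215 and 211 CPM in phyB and 167 and 164 CPM in WT red (log2 change 0.36 ± 0.032, adjusted p = 1.10e-19). FLU rose as well, to 38.1 and 34.9 CPM in phyB, against 28.7 and 28.6 CPM in WT red (log2 change 0.34 ± 0.071, adjusted p = 3.84e-05). HEMB2 showed the largest fall, to 1.06 and 1.39 CPM in phyB, against 2.33 and 2.38 CPM in WT red (log2 change −0.91 ± 0.30, adjusted p = 0.0146), and that call was lost in DESeq2 and without either WT red library or phyB replicate 1. HO1, UPM1 and NYC1 were also called lower, at −0.18, −0.21 and −0.076 on the log2 scale, and the call of NYC1 was lost in DESeq2 and in fits without WT red replicate 2 or either phyB library. GUN4, CHLH and HEMA1 were slightly higher. GUN4 had 134 and 129 CPM in phyB and 116 and 119 CPM in WT red (log2 change 0.16 ± 0.039, adjusted p = 3.17e-04). CHLH had 536 and 531 CPM in phyB and 472 and 469 CPM in WT red (log2 change 0.18 ± 0.022, adjusted p = 9.07e-12). HEMA1 had 249 and 248 CPM in phyB and 227 and 230.3 CPM in WT red (log2 change 0.12 ± 0.029, adjusted p = 3.76e-04). None of the libraries of GUN4, CHLH and HEMA1 overlapped between phyB and WT red. All 24 calls were lost when the 2 libraries of each group were summed and a coefficient of variation of 0.1 was assumed. The main fit kept the libraries apart and estimated 1.59%. Over all genes, 313 were then called higher and 312 lower.

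In phyAB seedlings, levels were lower across most of the pathway. Against WT red, 4 members were called higher in phyAB and 24 lower, where 22.3% of all genes were called higher and 22.7% lower. The median log2 change of the members was −0.38, against 0.0 for all genes. Falls of at least 2-fold were called for GUN4, CHLM and CRD1, where 2.95% of all genes were called at that size, and no member rose that far, against 4.04% of all genes. GUN4 had 50.7 and 53.9 CPM in phyAB, against 116 and 119 CPM in WT red (log2 change −1.17 ± 0.045, adjusted p = 2.32e-51). CHLM had 81.1 and 81.2 CPM in phyAB, against 167 and 164 CPM in WT red (log2 change −1.03 ± 0.037, adjusted p = 6.60e-55). CRD1 had 206 and 205 CPM in phyAB, against 412 and 414 CPM in WT red (log2 change −1.01 ± 0.027, adjusted p = 1.64e-69). Each of these genes had lower levels in both phyAB libraries than in any WT red library. CHLI1 fell to 71.7 and 66.8 CPM in phyAB, just short of 2-fold (−0.997 ± 0.041 on the log2 scale). HEMA1 fell to 120.1 and 117 CPM in phyAB (−0.94 ± 0.032) and CAO to 75.2 and 71.7 CPM (−0.94 ± 0.04).

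CHLH had 268 and 266 CPM in phyAB, against 472 and 469 CPM in WT red (log2 change −0.82 ± 0.025, adjusted p = 6.20e-63). CHLD had 89.9 and 94.3 CPM in phyAB, against 117 and 121 CPM in WT red (log2 change −0.37 ± 0.039, adjusted p = 1.33e-15). The ratio of CHLH to CHLD in RPKM was 1.64 ± 0.0655 in phyAB, 2.13 ± 0.0784 in phyB and 2.23 ± 0.0529 in WT red (SD, n = 2 each). Of the late steps, DVR had 14.4 and 13.7 CPM in phyAB, against 22.1 and 24.5 CPM in WT red (log2 change −0.72 ± 0.095), and CHLG had 22.8 and 23.8 CPM in phyAB, against 32.4 and 30.7 CPM in WT red (log2 change −0.44 ± 0.075).

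Among the early and common steps, 7 of the 9 common genes were called lower in phyAB than in WT red. HEME1 had 43.3 and 43.2 CPM in phyAB, against 80.3 and 80 CPM in WT red (log2 change −0.89 ± 0.051, adjusted p = 1.33e-34). HEMC had 91.3 and 87.9 CPM in phyAB, against 145 and 143 CPM in WT red (log2 change −0.68 ± 0.038, adjusted p = 1.59e-35). GSA2 had 31.7 and 29.9 CPM in phyAB, against 40.7 and 43.6 CPM in WT red (log2 change −0.45 ± 0.067, adjusted p = 5.06e-09). All 3 stood below both WT red libraries. The smaller falls of HEMB1 (−0.13 ± 0.048), HEMD (−0.34 ± 0.14) and HEMF1 (−0.17 ± 0.051) were lost when a single library was left out, HEMB1 without WT red replicate 1 or either phyAB library, HEMD without WT red replicate 2 or either phyAB library, and HEMF1 without replicate 1 of WT red or of phyAB. FC2 had 20.5 and 19.9 CPM in phyAB, against 38.02 and 35.7 CPM in WT red (log2 change −0.87 ± 0.076, adjusted p = 4.51e-20). HO1 (−0.23 ± 0.029), HO2 (−0.56 ± 0.11) and NYC1 (−0.38 ± 0.027) were also called lower.

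The members called higher in phyAB than in WT red were few. GGR had 489 and 484 CPM in phyAB and 429.7 and 440.2 CPM in WT red (log2 change 0.16 ± 0.018, adjusted p = 2.11e-14), the single chlorophyll-branch gene to move that way. FC1, HCAR and UPM1 were the others, at 0.20 ± 0.048, 0.40 ± 0.12 and 0.23 ± 0.04 on the log2 scale, the call of HCAR being lost without phyAB replicate 1. HEMA2 and GSA1, the isozymes not called in WT red over WT dark, were not called in phyAB over WT red either (log2 changes −0.02 ± 0.07 and 0.13 ± 0.056). The same phyAB libraries held the seed storage transcripts named above, 49.0 and 48.7 CPM, against 0.725 and 0.376 CPM in WT red, and their part in these differences was not tested. With an assumed coefficient of variation of 0.1, 13 members were called lower and 0 higher, where 1307 of all genes were called lower and 1433 higher.

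Set against WT dark, red-lit phyAB seedlings held higher levels of most members. Genotype and light differ together in this comparison, so their parts cannot be told apart. Of the 35 tested, 25 were called higher and 3 lower, where 27.2% and 20.9% of all genes were called. A difference of at least 2-fold was called upward for 9, against 6.23% of all genes, and downward for none, against 1.02%. The median log2 change of the members was 0.48, against 0.04 for all genes. The WT dark libraries are shared with the WT red comparison. GUN4 had a log2 change of 2.29 ± 0.072 in phyAB over WT dark, CHLH 1.73 ± 0.033 and DVR 1.91 ± 0.13, compared with 3.46 ± 0.062, 2.54 ± 0.031 and 2.64 ± 0.12 in WT red over WT dark. CHLM had 81.1 and 81.2 CPM in phyAB and 86.6 and 80.6 CPM in WT dark, and was not called (−0.044 ± 0.041, adjusted p = 0.399). NYC1, HCAR and HO1 were called lower in phyAB than in WT dark (−0.23 ± 0.027, −0.41 ± 0.11 and −0.47 ± 0.028). With an assumed coefficient of variation of 0.1, 16 members were called higher and 0 lower. That setting called 2181 of all genes higher and 721 lower, so 75.2% of all its calls were higher, against 56.5% in the main fit. The share of higher calls over all genes varied with the setting, at 54.1% with RLE scaling, 52.9% with upper-quartile scaling and 49.9% with the compared groups alone. With the compared groups alone, log2 changes of all genes shifted by a median of −0.038, and 1 member lost its call.

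Over the 4 groups, 20 members had the same order of levels, phyB highest, then WT red, phyAB and WT dark, with no overlap of libraries between neighbours in that order. HEMA1, GSA2, CHLH, CHLI1, GUN4, CRD1, CAO and FC2 were among them. The share of all genes with this order was not computed, so the count has no background to be read against. The order rests on separate libraries alone, and not every step in it was called. FC2, DVR, HEMD and HEMF1 were not called in phyB over WT red (adjusted p of 0.224, 0.484, 0.0864 and 0.0976). PPOX1 was not called in phyAB over WT dark (adjusted p = 0.103). Other genes with separate groups had another order. HO1 ran from WT dark through WT red and phyB to phyAB, though phyAB over phyB was not called (adjusted p = 0.17). HCAR ran from WT dark through phyAB and phyB to WT red. For HCAR, neither phyAB over phyB (adjusted p = 0.329) nor phyB over WT red (adjusted p = 0.11) was called. NYC1 was highest in WT red, followed by phyB, WT dark and phyAB.

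Between the mutants, 24 members were lower and 2 higher in phyAB than in phyB, where 24.1% of all genes were called lower and 26.1% higher, and the median log2 change was −0.61, against 0.01 for all genes. Falls of at least 2-fold were called for 8 members, where 4.35% of all genes were, and a rise of that size for HEMB2 alone, where 4.88% were. CHLM moved most, with 81.1 and 81.2 CPM in phyAB and 215 and 211 CPM in phyB (log2 change −1.39 ± 0.035, adjusted p = 2.72e-72). GUN4 had a log2 change of −1.33 ± 0.044 (adjusted p = 4.47e-59). The 2 members called higher were HEMB2 (1.33 ± 0.28) and UPM1 (0.44 ± 0.041).

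Genes next to the pathway, among them the protochlorophyllide reductases, anchors, chaperones and breakdown enzymes, were taken from a list of 24, of which 22 were tested. In WT red over WT dark, 16 were called higher and 4 lower, where 24.1% of all genes were called higher and 22.7% lower. In phyB over WT red, 6 were called higher and 6 lower, where 13.1% and 14.1% of all genes were. PORA (AT5G54190), the reductase form that falls as seedlings green, had 18.2 and 21.2 CPM in WT red, against 135 and 141 CPM in WT dark (log2 change −2.81 ± 0.052, adjusted p = 1.73e-88). PORC (AT1G03630), the form of green tissue, rose (2.16 ± 0.096), and PORB (AT4G27440) fell by 0.51 on the log2 scale. LIL3:1 (AT4G17600), an anchor of the reductases and GGR, rose (1.77 ± 0.08), whereas LIL3:2 (AT5G47110) fell by 1.16. SGRL (AT1G44000), a magnesium dechelatase, rose most (3.55 ± 0.079), and BCM1 (AT2G35260), which stabilises the chelatase complex, rose too (2.34 ± 0.059). YCF54 (AT5G58250), needed for the cyclase, rose as well (1.58 ± 0.075).

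In phyAB over WT red, 13 of these genes were called lower and 3 higher, where 22.7% of all genes were called lower and 22.3% higher. PORA had 381 and 379.8 CPM in phyAB and 18.2 and 21.2 CPM in WT red, a log2 change of 4.28 ± 0.044 (adjusted p = 1.20e-119). It stood higher in phyAB than in WT dark as well (1.46 ± 0.03, adjusted p = 2.35e-83), and in phyB, with 16.8 and 17.2 CPM, it was not called against WT red (−0.20 ± 0.081, adjusted p = 0.0506). PORB and LIL3:2 were the other genes called higher, at 1.70 ± 0.028 and 1.41 ± 0.036. SGRL fell by 1.68, CLD1 (AT5G38520), a dephytylase, by 1.43 and BCM1 by 1.04 on the log2 scale. PORA, PORB and LIL3:2 ran opposite to most members in both comparisons, which share the WT red libraries.

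**Figure D5:**
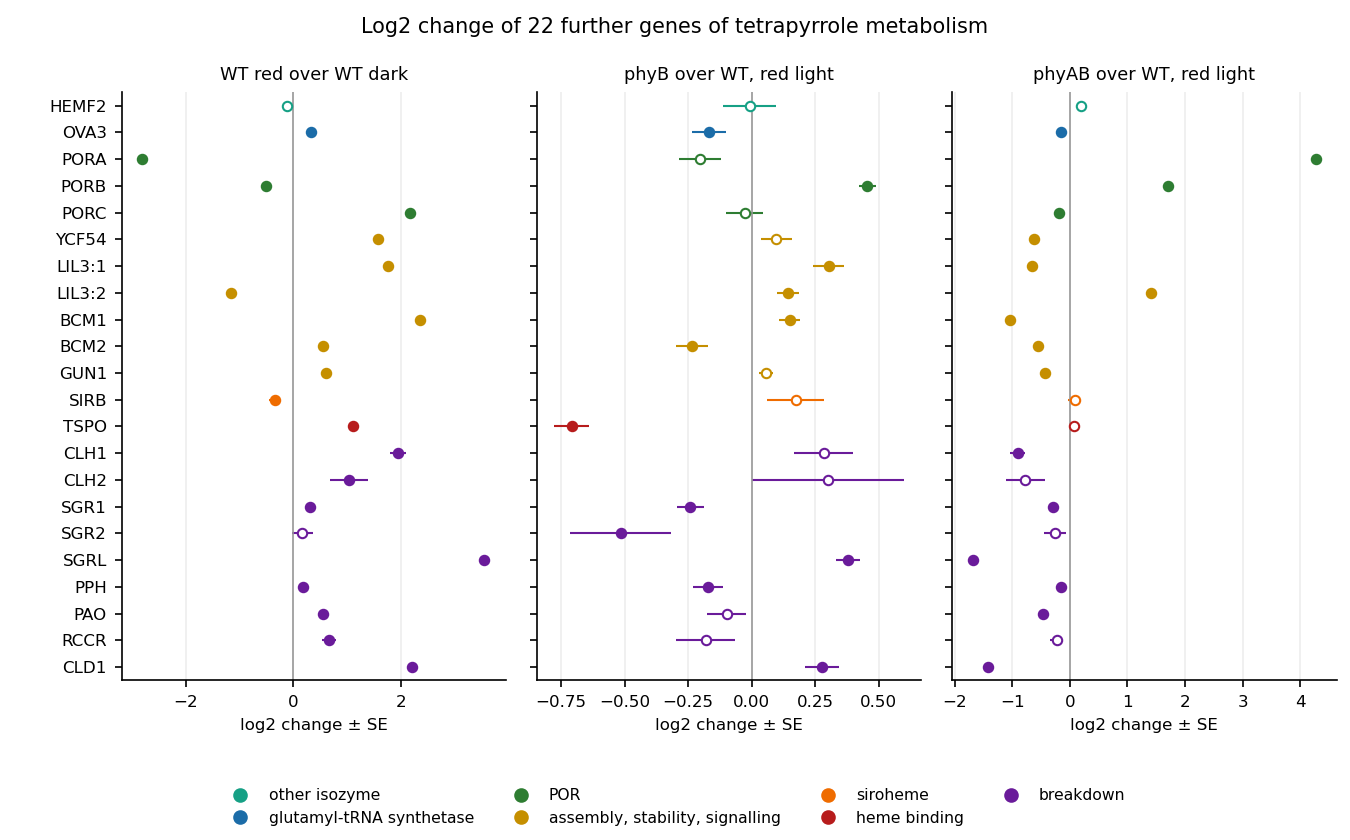
Log2 change of the 22 tested neighbouring genes for WT red over WT dark, phyB over WT red and phyAB over WT red, with bars of 1 standard error and filled points for calls. PORA lies farthest from 0 for phyAB over WT red, at 4.28, and on the other side of 0 for WT red over WT dark, at −2.81.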

How the data were processed

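For each of 8 libraries the authors deposited read counts per gene and RPKM, per the file headers. The genome build was TAIR10, per the submitters' processing notes. Sources used here name no aligner or counter, and say nothing of strand or of reads that match several genes. The deposited RPKM divide by gene length and by the library's total reads, without the scaling used for CPM. They were used to compare levels between genes, and for shares, ratios and step totals that are also set side by side between groups. Library totals ran from 15926547 to 22116924 reads, and a count of 0 allows up to 0.136 to 0.188 CPM (3 reads, counting error only).

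Counts were tested with edgeR 4.0.16 in R 4.3.3: filterByExpr (minimum count 10), trimmed mean of M-values scaling, a quasi-likelihood fit of all 8 libraries with 1 coefficient per group (4 residual degrees of freedom) and Benjamini-Hochberg adjustment over 20716 genes. Standard errors are the log2 change divided by the square root of F. A call is an adjusted p under 0.05. The common biological coefficient of variation was 1.59%. The squared difference between the replicates of a group averaged 1.348 to 1.477 times the variance that counting noise gives. Alternatives were DESeq2 1.42.0, 2 other scalings, no filter, the compared groups alone, a replicate block, each library left out, a 2-fold minimum and an assumed coefficient of variation of 0.1 on summed libraries. That last setting summed the 2 libraries of each group and used a likelihood ratio test in place of the quasi-likelihood one.

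Any member may be named. Values per library are given for members called at 2-fold or more in WT red over WT dark, their isozymes, and members that ran against their branch, and for others where a comparison rests on them. Neighbouring genes are named where called at 2-fold or more in a comparison, or as isozymes. The members and lists were chosen with earlier results of these data known. Promoter windows were read from the RefSeq TAIR10.1 genome, since it shares its gene models' locus names with the files, and no file coordinates were used.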

Additional observations from a re-analysis of the deposited data

How the results depend on the processing

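Of the single-member results under the alternatives other than the 2-fold minimum, 2472 kept direction and side of the threshold, 116 lost the call, 9 gained one and 28 changed sign, all of the last among changes that were not called. Adding the replicate number as a block left the counts higher and lower unchanged, at 27 and 2 for WT red over WT dark, 20 and 4 for phyB over WT red, 4 and 24 for phyAB over WT red, 2 and 24 for phyAB over phyB, and 25 and 3 for phyAB over WT dark. Libraries of the same number in different groups did not deviate together (correlations of −0.0036 to 0.027). Replicates of a group differed by little more than counting noise, so these correlations cannot show whether the numbers pair the samples.

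An assumed coefficient of variation of 0.1 left 21 called, 20 higher and 1 lower in WT red over WT dark, where HEMB1, HEMB2, HEMF1, GGR, NYC1, FC1, HO1 and HY2 lost their calls. It left 0 called, 0 higher and 0 lower in phyB over WT red, 13 called, 0 higher and 13 lower in phyAB over WT red, and 16 called, 16 higher and 0 lower in phyAB over WT dark. In phyAB over phyB, 5 members lost their calls and 1 stayed called higher, and all the others still called were lower. Over all genes, that assumed variation gave 2377 higher and 1102 lower in WT red over WT dark. In phyAB over phyB it gave 2050 higher and 1906 lower, and in phyAB over WT dark 2181 higher and 721 lower. A 2-fold minimum left 14 called, 14 higher and 0 lower in WT red over WT dark, 0 called, 0 higher and 0 lower in phyB over WT red, 3 called, 0 higher and 3 lower in phyAB over WT red, 9 called, 1 higher and 8 lower in phyAB over phyB, and 9 called, 9 higher and 0 lower in phyAB over WT dark. DESeq2 called 2 members lower in phyB over WT red, and upper-quartile scaling 4 higher in phyAB over phyB. Leaving out 1 library gave 2 to 4 members lower in phyB over WT red, the 2 without WT red replicate 2 or phyB replicate 1. It gave 3 to 6 lower in phyAB over WT dark, the 6 without WT dark replicate 2. Both the assumed variation and the 2-fold minimum set a stricter rule by construction. For the other settings the cause was not tested.

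The sign changes on the log2 scale were small. With 1 library left out, HEMA2 ran from −0.1702 to 0.0551 and GSA1 from −0.0778 to 0.0618 in WT red over WT dark, where GSA1 was also 0.0002 without the filter and 0.0004 with the compared groups alone. In phyB over WT red, GSA1 ran from −0.0515 to 0.0706, HO2 from −0.078 to 0.1821 and HY2 from −0.0085 to 0.5408. In phyAB over WT red, HEMA2 ran from −0.0571 to 0.0244, FLU from −0.0542 to 0.0148 and HY2 from −0.2232 to 0.3555, and upper-quartile scaling gave 0.0152 for HEMA2 and 0.0122 for FLU. In phyAB over phyB, PPOX2 ran from −0.1749 to 0.0073, GGR from −0.0025 to 0.0146, FC1 from −0.0667 to 0.0079 and HY2 from −0.4442 to 0.0002. There GGR was −0.0005 with RLE scaling, −0.0014 in DESeq2 and −0.0009 with the compared groups alone, and FC1 was 0.0087 with upper-quartile scaling. In phyAB over WT dark, HEMA2 ran from −0.1906 to 0.0353. HO3, with 1 read in 8 libraries, had too little depth to be tested.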
